A study of Mus musculus with 20 samples.

Results

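Setd8, Suv420h1, Suv420h2 and Phf8 are the genes described here, 4 of the 27998 genes listed in the scRNA-seq tables and of the 24062 genes listed in the RNA-seq table. Their rows were taken by gene symbol in both tables, and each symbol was found in each. Cells came from Nestin-EGFP mice, in which the Nestin promoter drives EGFP, and were sorted from the dissociated dentate gyrus as EGFP-positive, 7-AAD-negative cells at postnatal day 5 (P5), 12 weeks (12w) and 24 weeks (24w). There was 1 scRNA-seq library and 1 scATAC-seq library per age, so the ages were not tested against each other, and every interval given for them covers counting error only. The sorted cells also included vascular and oligodendrocyte lineage cells. The RNA-seq libraries were made from cultured neural stem cells (NSCs) selected with puromycin and collected after lentiviral infection with a scrambled shRNA (Ctrl) or an shRNA against Setd8 (Setd8KD). The labels give 3 days after infection, and the heading of the study's table used below for the grouping gives 2. The labels name the hippocampus as the tissue of these cultures, while the study's methods describe much-passaged NSCs of the embryonic cortex as well as adult hippocampal NSCs. Neither says whether the libraries came from separate cultures, so the p-values below measure the spread between libraries only.

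Methylation of lysine 20 of histone H4 (H4K20) is written in steps. Setd8 (also Kmt5a or Pr-Set7) places the single methyl group, H4K20me1, and is the enzyme known for this step in mammals. Its protein is known to be destroyed in S phase through the Cul4-Ddb1-Dtl ubiquitin ligase acting on PCNA-bound Setd8, and to build up in G2 and mitosis. Suv420h1 (Kmt5b) and Suv420h2 (Kmt5c) add the further methyl groups that give H4K20me2 and H4K20me3, the latter a mark of pericentric heterochromatin. Phf8, encoded on the X chromosome, is a demethylase that removes H4K20me1. In the dentate gyrus, radial NSCs give rise to dividing neural progenitor cells (NPCs) and these to immature neurons, so the cells span quiescent, cycling and post-mitotic states.

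The sequences 250 bases upstream of the annotated start sites are shown because the report compares RNA with open chromatin at these sites. They were taken from RefSeq on GRCm38.p6, where Setd8 is listed as Kmt5a with 3 start sites, Suv420h2 as Kmt5c with 1, Suv420h1 as Kmt5b with 2 and Phf8 with 1, all on the plus strand. Capitals mark matches to 4 motifs searched on both strands: the cell cycle homology region (CHR, TTTGAA or TTCGAA), the CCAAT box (CCAAT), an E2F site (TTTGGCGC, TTTCGCGC or TTTCCCGC) and the NRF1 site. The upstream sequence of the second Suv420h1 start site is given, since the first held none of these letters.
Setd8, the first start site, chr5:124439680-124439929: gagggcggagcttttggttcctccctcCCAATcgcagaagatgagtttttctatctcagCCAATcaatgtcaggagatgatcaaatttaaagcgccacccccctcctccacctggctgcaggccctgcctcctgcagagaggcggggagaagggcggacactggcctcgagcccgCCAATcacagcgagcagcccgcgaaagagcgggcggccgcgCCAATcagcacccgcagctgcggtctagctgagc
Setd8, the second start site, chr5:124445249-124445498: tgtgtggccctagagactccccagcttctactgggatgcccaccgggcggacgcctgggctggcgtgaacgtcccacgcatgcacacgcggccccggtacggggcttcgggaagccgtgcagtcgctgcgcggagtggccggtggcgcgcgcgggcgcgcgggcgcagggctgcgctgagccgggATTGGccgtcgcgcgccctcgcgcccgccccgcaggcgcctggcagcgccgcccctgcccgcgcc
Setd8, the third start site, chr5:124446454-124446703: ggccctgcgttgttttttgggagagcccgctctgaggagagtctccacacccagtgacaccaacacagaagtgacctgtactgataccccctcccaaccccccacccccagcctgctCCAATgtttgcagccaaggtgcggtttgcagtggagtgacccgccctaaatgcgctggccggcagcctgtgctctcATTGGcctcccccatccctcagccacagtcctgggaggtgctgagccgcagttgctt
Suv420h1, the second start site, chr19:3767639-3767888: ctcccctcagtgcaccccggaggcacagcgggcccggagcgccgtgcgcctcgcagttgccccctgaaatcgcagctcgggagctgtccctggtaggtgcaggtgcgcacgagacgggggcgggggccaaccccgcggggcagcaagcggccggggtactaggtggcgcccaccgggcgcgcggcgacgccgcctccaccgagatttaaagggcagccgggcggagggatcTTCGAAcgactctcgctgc
Suv420h2, chr7:4739877-4740126: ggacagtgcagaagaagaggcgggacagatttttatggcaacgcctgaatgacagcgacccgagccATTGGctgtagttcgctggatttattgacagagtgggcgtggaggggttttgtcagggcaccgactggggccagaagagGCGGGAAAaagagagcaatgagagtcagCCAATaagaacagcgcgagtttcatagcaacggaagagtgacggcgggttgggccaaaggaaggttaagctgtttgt
Phf8, chrX:151520422-151520671: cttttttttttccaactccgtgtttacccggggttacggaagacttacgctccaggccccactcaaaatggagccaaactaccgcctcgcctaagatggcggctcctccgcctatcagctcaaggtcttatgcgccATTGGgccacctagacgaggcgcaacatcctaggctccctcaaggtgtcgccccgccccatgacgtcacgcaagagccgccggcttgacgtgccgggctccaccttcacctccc

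The first Setd8 start site carried 4 CCAAT boxes, which began 223, 191, 75 and 34 bases before it and all lay on the coding strand. Of 32851 promoter windows of the same length, 33.8% held at least 1 CCAAT box, 10.1% at least 2 and 0.84% at least 4. The second Setd8 start site held 1 (65 bases before it) and the third held 2 (133 and 57 bases before it). The Setd8 windows held no CHR or E2F match. Suv420h2 held 2 CCAAT boxes, 184 and 77 bases before its start, and an E2F match, GCGGGAAA, 105 bases before it, a motif found in 1.53% of the windows. Suv420h1 held a CHR match, TTCGAA, 19 bases before its second start site, and Phf8 a CCAAT box 114 bases before its start. CHR matches were found in 17.1% of the windows and NRF1 matches in 3.74%, the latter in none of the windows of the members. A match gives the letters only and does not show that a factor binds there.

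After filtering, 12752 cells of the P5, 5271 of the 12w and 2794 of the 24w library were analysed, with a median of 4261, 2271 and 2178 unique molecular identifiers (UMIs) per cell. Clusters were named from marker lists as NSC-like, AS-like (astrocytes or their precursors), NPC-like, IMN1-like and IMN2-like (immature neurons), OPC-like (oligodendrocyte precursors), PC-like (pericytes) and VSMC-like (vascular smooth muscle), among others, and 5 clusters were left unnamed. The NSC-like class joined 2 clusters, with 11 and 10 of the 11 NSC markers raised, and held 1067, 311 and 91 cells. The NPC-like cluster, named in part from cycling genes and with 8 of 8 markers raised, held 1258, 237 and 43 cells. PC-like cells made up 3.86%, 46.3% and 62.2% of the cells in order of age, and members are therefore given within classes. The libraries shared 26 to 86 cell barcodes pairwise. Cells with Xist and no Y-linked UMI made up 20.1% of the P5, 92.4% of the 12w and 0.036% of the 24w cells, and cells with Y-linked UMIs only made up 31.8%, 0% and 29.5%, so sex and age cannot be told apart between the adult libraries.

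Among named classes of over 50 cells, Setd8 RNA was lowest in NSC-like and AS-like cells and highest in NPC-like cells and immature neurons at P5. Levels are the UMIs of a pooled class scaled to 1000000 UMIs (CPM), with 95% Poisson intervals, and are compared between classes and not between genes. At P5, Setd8 stood at 100.2 CPM (88.7 to 112.8) in IMN2-like, 99.0 (92.8 to 105.5) in NPC-like and 78.6 (68.7 to 89.5) in IMN1-like cells. It stood at 54.9 CPM (49.5 to 60.7) in OPC-like, 54.5 (42.8 to 68.3) in ependymal-like, 53.1 (35 to 77.3) in VSMC-like and 49.96 (42.2 to 58.8) in PC-like cells. The lowest were the AS-like cells at 32.7 CPM (30.3 to 35.2) and the NSC-like cells at 31.2 CPM (26.3 to 36.9). In this order the intervals of IMN2-like and NPC-like cells overlapped, as did those of the 4 classes near 50 CPM and those of the AS-like and NSC-like cells, whereas the NPC-like interval lay above the IMN1-like one. The OPC-like and PC-like levels each joined unlike clusters. OPC-like cluster 2 (1701 cells) stood at 36.3 CPM and cluster 15 (452 cells) at 103.8 CPM, while PC-like cluster 22 (146 cells) stood at 76.5 CPM and the other PC-like clusters between 32.2 and 40.0 CPM, so the place of both classes above the AS-like and NSC-like cells rests on clusters 15 and 22. Oligodendrocyte-like cells (63.2 CPM, 48.6 to 80.8) fell between IMN1-like and OPC-like cells and overlapped both. The 1212 P5 cells of the unnamed clusters stood at 45.0 CPM (39.6 to 50.9). These clusters ran from 25.0 CPM in cluster 21 (146 cells, 21 UMIs), below the NSC-like level, to 79.4 CPM in cluster 23 (102 cells, 44 UMIs). Classes of fewer than 50 cells at P5 had wide intervals, from 23.6 CPM (4.86 to 68.9) on 3 UMIs in endothelial-like to 80.7 CPM (40.3 to 144.4) on 11 UMIs in fibroblast-like cells, the latter above the intervals of the AS-like and NSC-like cells.

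The other members had a different order of classes at P5. Among classes of over 50 cells, Suv420h1 was lowest in NPC-like cells, with 23.2 CPM (20.2 to 26.4), against 35.3 (30.0 to 41.3) in NSC-like and 35.8 (33.3 to 38.5) in AS-like cells, so that NPC-like cells lay below NSC-like cells for Suv420h1 and above them for Setd8. Suv420h2 was lowest in ependymal-like cells at 12.3 CPM (7.19 to 19.8), and otherwise lay between 19.3 CPM (14.6 to 25.1) in IMN1-like and 30.7 CPM (24.6 to 37.7) in PC-like cells. Its intervals in NSC-like (22.5 CPM, 18.3 to 27.3) and NPC-like cells (20.9 CPM, 18.1 to 24.0) overlapped. Phf8 lay between 6.9 CPM (4.2 to 10.6) in IMN1-like and 9.5 CPM (6.2 to 13.9) in IMN2-like cells among the neural classes, with all intervals overlapping.

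**Figure D1:**
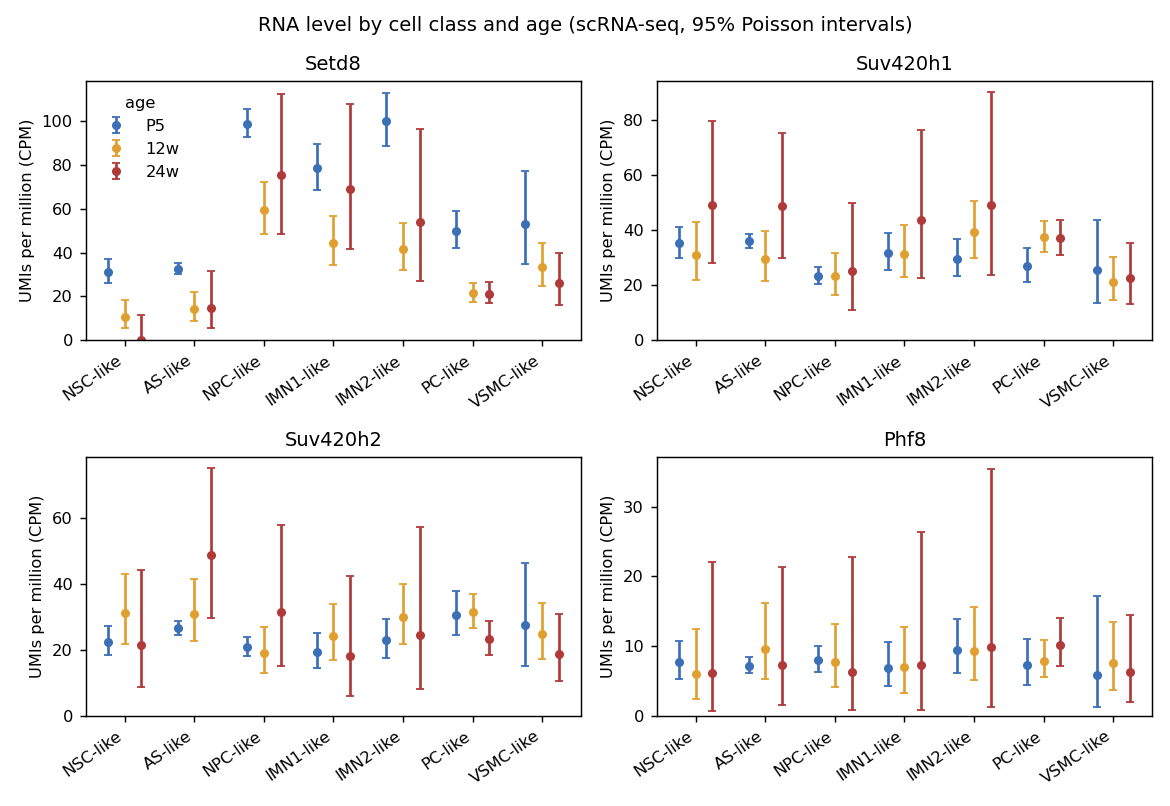
RNA level of each member in CPM of UMIs (vertical axis) by cell class (horizontal axis) and age (colors), with 95% Poisson intervals on the UMIs of 1 library per age. In the NSC-like class, Setd8 stood at 31.2, 10.4 and 0 CPM in order of age, while the intervals of Suv420h1, Suv420h2 and Phf8 overlapped between ages.

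Setd8 was lower at both adult ages than at P5 in NSC-like cells. The 1067 NSC-like cells of P5 held 139 Setd8 UMIs (31.2 CPM), the 311 cells of 12w held 12 (10.4 CPM, 5.3 to 18.1) and the 91 cells of 24w held 0, which allows up to 9.19 CPM at a floor of 3 UMIs. The 12w to P5 ratio was 0.33 (95% interval 0.17 to 0.60, exact conditional on the UMIs), and at 24w the level was at least 3.40-fold lower than at P5 when set at that floor. The exact interval of the 24w ratio, which also holds the counting error at P5, ran from 0 to 0.37 and so allows a smaller fall. The 12w and 24w levels could not be told apart at this depth, with an interval of their ratio from 0 to 1.28. Of all genes whose higher level would give at least 20 UMIs in the smaller pool, 5.76% (442 of 7678) were at least 2-fold lower in NSC-like cells at 12w, and Setd8 was 1 of the 3 members that met this minimum. At 24w, 7.39% of 3408 genes were at least 2-fold lower, and no member met the minimum. In order of age, 12.1%, 3.86% and 0% of NSC-like cells had a Setd8 UMI, at a median of 3985, 3485 and 3221 UMIs per cell, and 2.72%, 0.96% and 0% did after each cell was thinned to 1000 UMIs. The 0 of 91 cells allow up to 3.30% of cells with a Setd8 UMI, which limits detection at this depth and not the share of cells that express the gene.

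Setd8 was also lower at 12w in the other neural classes. In AS-like cells it stood at 32.7, 14.4 and 14.6 CPM at P5, 12w and 24w, with ratios to P5 of 0.44 (0.27 to 0.68) and 0.45 (0.16 to 0.98, on 6 UMIs). In NPC-like cells it stood at 99.0, 59.5 and 75.6 CPM, with ratios of 0.60 (0.48 to 0.74) and 0.76 (0.49 to 1.14). In IMN2-like cells it stood at 100.2, 41.8 and 54.0 CPM, with ratios of 0.42 (0.31 to 0.55) and 0.54 (0.27 to 0.98). In IMN1-like cells it stood at 78.6, 44.5 and 69.3 CPM, with ratios of 0.57 (0.42 to 0.75) and 0.88 (0.52 to 1.41). The 12w intervals thus lay below 1 in all 5 neural classes, and the 24w intervals in NSC-like, AS-like and IMN2-like cells. The share of all genes with an interval below 1 was not counted, so these intervals have no such share beside them. At 12w the interval for NSC-like cells overlapped that of each other neural class, and the difference between classes was not tested. Genes at least 2-fold lower at 12w made up 8.39% of those measured in AS-like, 5.24% in NPC-like, 3% in IMN1-like and 3.85% in IMN2-like cells. Setd8 passed this fold in the AS-like and IMN2-like classes, and not in the NPC-like and IMN1-like classes. The corresponding shares at 24w were 11%, 4.43%, 2.66% and 2.54%. At 24w Setd8 did not meet the UMI minimum in AS-like cells, and it did not pass the fold in the other 3 classes.

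Setd8 was also lower in PC-like cells at both adult ages and in VSMC-like cells at 24w. PC-like cells stood at 49.96 CPM (145 UMIs), 21.6 (101 UMIs) and 21.2 (77 UMIs), and both adult ratios to P5 were 0.43, with intervals of 0.33 to 0.56 and 0.32 to 0.56 in order of age. The clusters behind the class differed between ages. At P5, 87 of the 145 Setd8 UMIs came from cluster 22 (76.5 CPM), which held 146 P5 cells and 0 of either adult age and had Tubb6, Col4a2 and Col4a1 as leading genes, while cluster 3, which held cells of each age, stood at 32.2, 21.8 and 19.2 CPM. The mitotic genes of the class summed to 2394, 93.8 and 75.3 CPM, and Setd8 by cycling state in this class is given with the cycling states. VSMC-like cells stood at 53.1, 33.6 and 26.1 CPM, with ratios of 0.63 (0.39 to 1.05) and 0.49 (0.26 to 0.90), so the 12w interval included 1. Their mitotic genes summed to 615.5, 74.7 and 33.6 CPM. In low VSMC-like cells, described with the cycling states, the ratios were 0.58 (0.33 to 1.05) at 12w and 0.42 (0.20 to 0.84, 17 against 19 UMIs) at 24w. The part of the mitotic genes in the Setd8 values of this class was otherwise not tested. Endothelial-like cells stood at 23.6, 15.2 and 18.9 CPM on 3, 4 and 7 UMIs, with overlapping intervals. Other classes went both ways on few UMIs. Oligodendrocyte-like cells stood at 63.2, 31.7 and 78.0 CPM, with ratios of 0.50 (0.19 to 1.10) and 1.23 (0.59 to 2.36), and GABA-like cells (GABAergic neurons) had a 12w ratio of 0.11 (0.01 to 0.55) on 2 against 9 UMIs. Over all cells of a library, Setd8 stood at 54.6, 29.5 and 27.1 CPM.

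The ratios of Suv420h1, Suv420h2 and Phf8 to P5 had intervals that included 1 in NSC-like cells. Suv420h1 stood at 35.3, 31.1 and 49.0 CPM at P5, 12w and 24w, with ratios to P5 of 0.88 (0.59 to 1.27) and 1.39 (0.77 to 2.33). Suv420h2 stood at 22.5, 31.1 and 21.4 CPM, with ratios of 1.38 (0.92 to 2.04) and 0.95 (0.37 to 2.04). Phf8 stood at 7.6, 6.0 and 6.1 CPM on 34, 7 and 2 UMIs, with ratios of 0.79 (0.30 to 1.81) and 0.80 (0.09 to 3.13). At 12w the Suv420h2 interval lay above that of Setd8 (0.17 to 0.60), while those of Suv420h1 and Phf8 overlapped it. In low NSC-like cells, described with the cycling states, Suv420h1 stood at 0.74 (0.45 to 1.17), and the difference between members was not tested. Because Phf8 is X-linked, its P5 level was also taken from P5 cells with Xist and no Y-linked UMI, which gave a 12w ratio of 1.54 (0.39 to 7.15). The same choice of P5 cells gave 0.42 (0.19 to 0.87) for Setd8.

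Across the other neural and mural classes, 3 ratios to P5 of the members besides Setd8 had intervals that excluded 1. No allowance was made for the number of ratios, so some could exclude 1 through counting error alone. The share of all genes with such an interval was not counted. Suv420h2 was higher in AS-like cells at 24w, at 48.6 against 26.6 CPM (ratio 1.83, 1.11 to 2.86, on 20 UMIs). Suv420h1 was higher in PC-like cells at both adult ages, at 37.4 and 37.0 against 26.9 CPM (ratios 1.39, 1.06 to 1.84, and 1.38, 1.03 to 1.84). This was not shared by each PC-like cluster. Cluster 22, with P5 cells only, stood at 21.1 CPM. In order of age, cluster 3 stood at 29.5, 43.6 and 32.2 CPM. Cluster 1 stood at 40.0, 33.7 and 41.2 CPM and cluster 9 at 34.1, 33.2 and 35.6 CPM, on 4 and 6 UMIs at P5. Outside these classes, Suv420h2 was higher in ependymal-like cells at 12w, at 70.0 against 12.3 CPM (ratio 5.67, 2.12 to 13.9, on 8 UMIs from 34 cells). At least 2-fold higher genes made up 10.5%, 13.5%, 8.01%, 8.28% and 11% of those measured in NSC-like, AS-like, NPC-like, IMN1-like and IMN2-like cells at 12w, and 14.7%, 17.9%, 9.35%, 10.1% and 10.3% at 24w. No member with enough UMIs passed that fold in the neural classes. The median gene moved by up to 0.22 on the log2 scale between ages within these classes. Scaled to that median, the 12w NSC-like ratio of Setd8 was 0.31.

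Free RNA was estimated at 12w and 24w from barcodes of 10 to 100 UMIs, and made up 7.12% to 14.1% of the UMIs of the neural classes. The P5 table lists selected barcodes only, so its free RNA was not estimated. In these near-empty barcodes Setd8 stood at 18.7 CPM at 12w and 22.9 CPM at 24w, and it would account for 17.1% of the Setd8 level of NSC-like cells at 12w and for 2.67% of that of NPC-like cells. The 12w ratio of NSC-like cells was 0.30 once this was subtracted from the 12w level, with the P5 level left as it was.

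In NPC-like, OPC-like and PC-like cells at P5, Setd8 RNA was higher in cells with many mitotic UMIs than in cells with none drawn. The ratios of the other members had intervals that included 1 in OPC-like and PC-like cells. Each cell was thinned to 1000 UMIs and called G2/M-high (at least 3 UMIs of 28 mitotic genes), S-high (fewer than 3 of these and at least 2 UMIs of 27 replication genes), low (none of either) or intermediate. A low cell is one with no such UMI among the 1000 drawn, not a cell shown to be out of the cycle, and before thinning no NPC-like cell at P5 held 0 UMIs of both lists. In NPC-like cells at P5, Setd8 stood at 43.5 CPM (16 to 94.7, on 6 UMIs) in low, 71.4 (55.8 to 90.0) in intermediate, 91.2 (79.2 to 104.5) in S-high and 107.5 (99.5 to 116.0) in G2/M-high cells. The G2/M-high to low ratio was 2.47 (1.13 to 6.76), and the G2/M-high to S-high ratio was 1.18 (1.01 to 1.38). Of 1363 genes measured in this contrast, 6.46% were at least 2-fold higher and 2.49% at least 2-fold lower in G2/M-high cells. Setd8 did not meet the UMI minimum in this contrast, so it is not among these genes and its ratio has no such share beside it. Over 3 settings of the processing, the G2/M-high to low ratio of Setd8 in NPC-like cells ran from 2.21 to 2.65 at P5. It ran from 1.42 to 1.90 at 12w and from 1.14 to 1.26 at 24w, and this difference between ages was not tested. In OPC-like cells at P5 the order of the states was the same, with 33.1 CPM (26.0 to 41.4), 44.4 (36.5 to 53.5), 50.9 (36.0 to 69.8) and 115.6 (97.9 to 135.6), and a G2/M-high to low ratio of 3.50 (2.64 to 4.67). In PC-like cells at P5 the levels were 32.5, 36.0, 52.9 and 88.7 CPM, with a ratio of 2.73 (1.79 to 4.23). Of the 145 Setd8 UMIs of these cells, 87 came from cluster 22, and its part in this ratio was not tested. The share of all genes was not counted for the PC-like contrast.

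Low cells also differed in Setd8 between classes. Those of the IMN1-like class stood at 79.2 CPM (66.3 to 93.9) and low cells of the NSC-like and AS-like classes at 32.0 (25.5 to 39.8) and 32.9 (29.8 to 36.2). The mitotic genes summed to 6025 CPM in NPC-like cells at P5 and to 363 and 287 CPM in IMN1-like and IMN2-like cells, close to the 348 CPM of NSC-like cells. IMN2-like cells therefore carried Setd8 RNA near the NPC level and IMN1-like cells below it, both with mitotic genes near the NSC level. In AS-like cells the S-high and G2/M-high ratios of 1.54 (0.95 to 2.36) and 1.64 (0.75 to 3.15) included 1, and in NSC-like cells only 12 cells with 3 Setd8 UMIs were G2/M-high. In IMN1-like cells G2/M-high cells stood at 55.9 CPM on 3 UMIs, with a ratio to low cells of 0.71 (0.14 to 2.11). The states are ranges of a score, with 675 P5 cells 1 UMI below the G2/M limit and 262 at it.

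**Figure D2:**
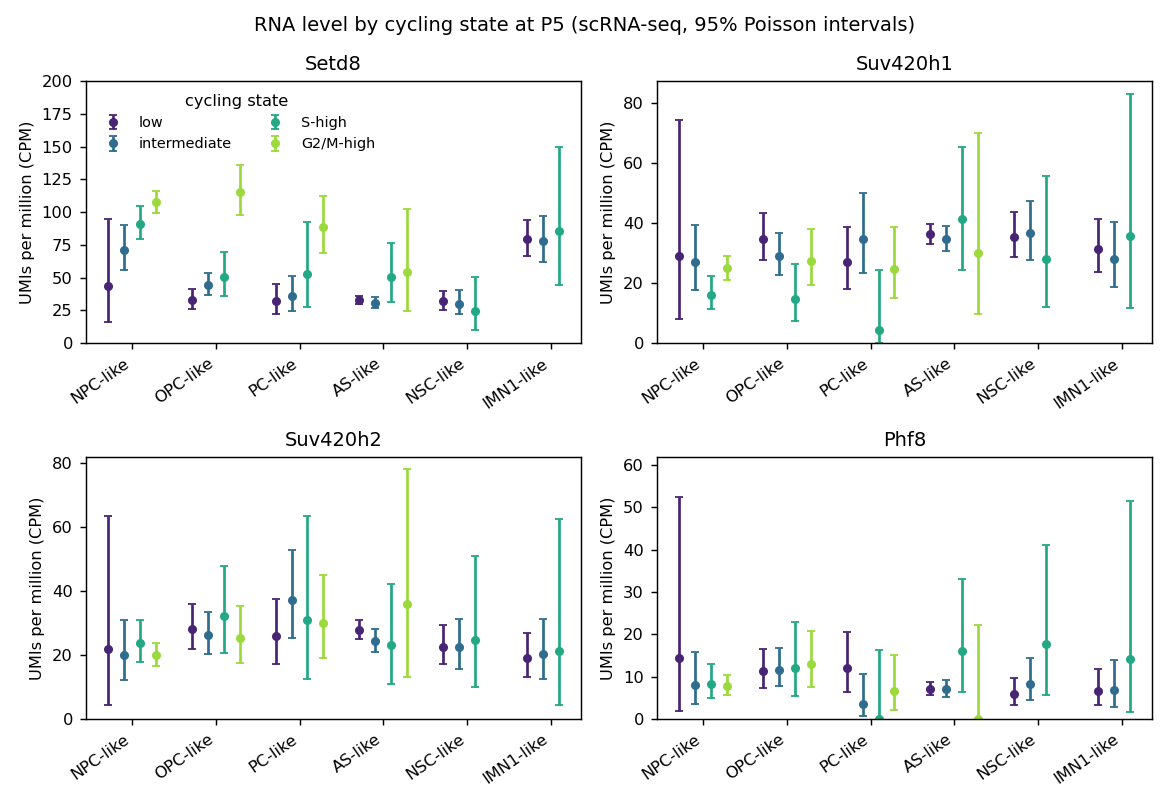
RNA level in CPM of UMIs at P5 (vertical axis) by class (horizontal axis) and cycling state (colors), with 95% Poisson intervals on pooled UMIs, for states of at least 20 cells. Setd8 reached 107.5, 115.6 and 88.7 CPM in G2/M-high NPC-like, OPC-like and PC-like cells, above the low cells of each class, and stood at 79.2 CPM in low IMN1-like cells.

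The intervals of Suv420h1, Suv420h2 and Phf8 included 1 in the same contrast in OPC-like and PC-like cells. Their G2/M-high to low ratios in OPC-like cells at P5 were 0.79 (0.52 to 1.19), 0.89 (0.57 to 1.38) and 1.15 (0.59 to 2.2), and the upper bounds lie below the lower bound of 2.64 for Setd8. In PC-like cells they were 0.92 (0.49 to 1.70), 1.15 (0.63 to 2.08) and 0.54 (0.15 to 1.61), with the upper bound for Suv420h2 above the lower bound of 1.79 for Setd8. Low NPC-like cells at P5 held 4, 3 and 2 UMIs of Suv420h1, Suv420h2 and Phf8, too few to set these members apart from Setd8 there. Suv420h1 was lower in S-high than in low OPC-like cells (ratio 0.42, 0.20 to 0.80, on 11 UMIs), and in NPC-like cells it was higher in G2/M-high than in S-high cells (1.54, 1.07 to 2.27). Over the neural classes together, G2/M-high cells held 2.42 times (2.18 to 2.68) the Setd8, 0.72 times (0.61 to 0.86) the Suv420h1 and 0.77 times (0.63 to 0.94) the Suv420h2 of low cells, where 8.55% of 11549 genes were at least 2-fold higher and 13% at least 2-fold lower. These pooled ratios also move with class, since 758 of the 839 G2/M-high neural cells were NPC-like.

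In the same contrast in OPC-like cells at P5, 5.99% of 8199 genes were at least 2-fold higher and 1.72% at least 2-fold lower in G2/M-high cells. Of the genes with enough UMIs, 1 of 3 members (Setd8), 2 of 5 readers, 4 of 7 turnover genes, 0 of 4 other demethylases and 0 of 2 Smyd enzymes were at least 2-fold higher, and none was lower. Among the turnover genes, Dtl, which recruits Setd8 to the ligase, had a G2/M-high to low ratio of 3.24 (2.05 to 5.19), and Pcna, the sliding clamp on which this occurs, one of 2.12 (1.57 to 2.88). Fzr1, the APC/C activator also called Cdh1, had a ratio of 2.53 (1.98 to 3.25) in G2/M-high cells, beside 2.03 (1.34 to 3.08) for Skp2, and 0.93 (0.62 to 1.38) in S-high cells. Dtl and Pcna were higher in the S-high than in the G2/M-high cells, at 7.15 (4.63 to 11.3) and 4.13 (3.07 to 5.56) times the low cells, whereas Setd8 was 1.54 (1.01 to 2.30) times. Among the readers, the condensin II subunits Ncapd3 and Ncapg2 had G2/M-high ratios of 5.82 (3.72 to 9.41) and 13 (6.17 to 31.5), whereas Trp53bp1, which binds H4K20me2 at DNA breaks, had 0.72 (0.46 to 1.09).

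Between cells of like cycling state, the ratio of Setd8 to P5 lay below 1 in some classes and states and not in others. In low NSC-like cells the 12w to P5 ratio was 0.32 (0.14 to 0.64, 9 against 82 UMIs), and at 24w it was 0 (0 to 0.45). In low AS-like cells the ratios were 0.51 (0.31 to 0.80) at 12w and 0.48 (0.16 to 1.13) on 5 UMIs at 24w, so the 24w interval, which lay below 1 for the whole class, included 1 in low cells. In G2/M-high NPC-like cells the ratios were 0.70 (0.54 to 0.90) at 12w and 0.81 (0.47 to 1.31) at 24w, and in S-high NPC-like cells 0.45 (0.28 to 0.69) at 12w. In low IMN2-like cells they were 0.39 (0.27 to 0.56) and 0.50 (0.20 to 1.06), and in low IMN1-like cells 0.63 (0.43 to 0.90) and 0.67 (0.28 to 1.36). In intermediate IMN1-like cells the ratios were 0.51 (0.29 to 0.84) and 1.12 (0.49 to 2.23), and over intermediate cells of all neural classes 0.67 (0.48 to 0.91) and 0.98 (0.55 to 1.64). In low PC-like cells they were 0.72 (0.48 to 1.10) and 0.56 (0.36 to 0.89), and in intermediate PC-like cells 0.48 (0.25 to 0.87) and 0.87 (0.49 to 1.54). The 12w interval of low PC-like cells thus included 1, unlike that of the whole class. The mitotic genes summed to 348, 93.2 and 73.5 CPM in NSC-like cells, to 298, 81.0 and 92.4 CPM in AS-like cells and to 6025, 5561 and 6059 CPM in NPC-like cells in order of age, and their part in the Setd8 values was otherwise not tested.

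The other genes of the pathway went in both directions in NSC-like cells at 12w. Of the 8 readers, 4 met the UMI minimum, and Lrwd1, an origin recognition complex partner that binds repressive marks, was higher (ratio 2.10, 1.29 to 3.36) while none was at least 2-fold lower, where 10.5% of all genes were higher and 5.76% lower. Of the 9 turnover genes, 5 met it, and the F-box protein Skp2, which also targets Setd8, was lower (0.33, 0.14 to 0.67), while Pcna and Ddb1 were higher by less than 2-fold, at 1.78 (1.34 to 2.35) and 1.47 (1.14 to 1.89). None of the 4 other demethylases passed 2-fold, nor did Smyd3 (1.95, 1.22 to 3.05), while Smyd5 had too few UMIs to be counted. With 1 call in each, these counts are too small to set the lists apart from all genes. The median log2 ratio was -0.17 over the 3 members, 0.10 over the readers, 0.57 over the turnover genes and 0.04 over the demethylases, against 0.08 over all genes.

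The genes most like Setd8 over classes and ages were not themselves mitotic genes of the list. Over 35 pools of class and age with at least 100000 UMIs, Pearson's r of log2(CPM + 10) with Setd8 was 0.76 for Dhx9, 0.75 for Hnrnpab, 0.74 for Lsm1, 0.73 for Rpsa and 0.73 for Cdk2ap1 among 10702 genes. These encode RNA-handling proteins (Dhx9, Hnrnpab and Lsm1), a small-subunit ribosomal protein (Rpsa) and a Cdk2-associated protein (Cdk2ap1). The r of Setd8 was 0.52 with the summed mitotic genes, 0.38 with the replication genes, and -0.20, -0.10 and -0.06 with Suv420h1, Suv420h2 and Phf8. Pools of 1 age share a library and its depth, so these values are a description.

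**Figure D3:**
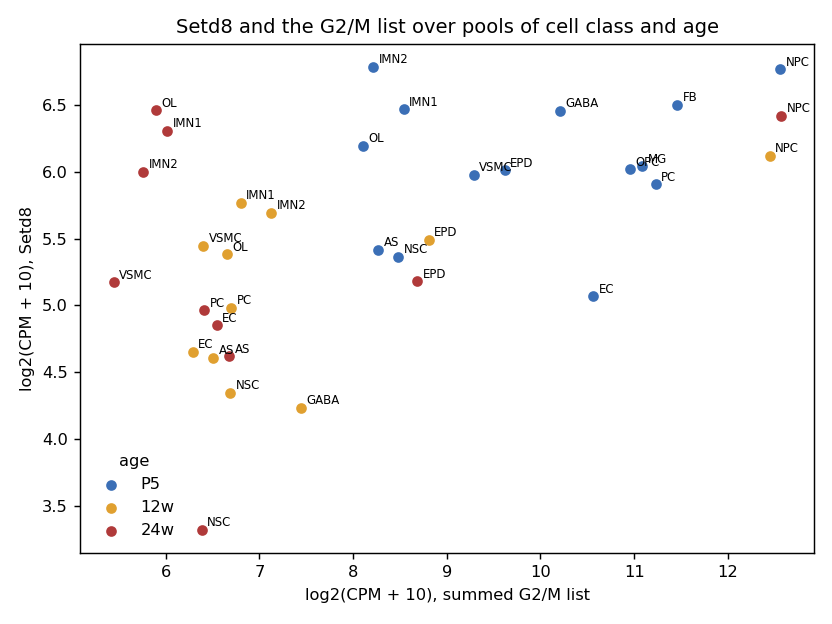
Setd8 level against the summed level of 28 mitotic genes, both as log2(CPM + 10), for 35 pools of class and age in the scRNA-seq libraries (colors give the age). NPC-like pools lie at the far right. At P5, IMN2-like cells lie as high in Setd8 as NPC-like cells and IMN1-like cells lie lower, both at mitotic levels near those of NSC-like cells.

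Counts at the Setd8 start sites in NSC-like cells stood near the median promoter at each adult age. In the scATAC-seq libraries, 8788, 12638 and 6041 barcodes were kept in order of age, and 407, 393 and 75 of them were classed NSC-like by transfer of the RNA classes. The first Setd8 start site lay in a peak at chr5:124438980-124440929 and the other 2 in a peak at chr5:124444524-124447035 at P5 (mm10), and each library had its own peaks there, 4462, 5003 and 4908 bases in all. Age ratios are therefore ratios of sums over peaks called separately, scaled to each library's own peaks, and not fold changes in accessibility. Summed over both peaks, NSC-like cells held 72.2, 61.7 and 68.5 counts after scaling to 1000000 counts in peaks (ATAC CPM). Against P5 this was 0.85 times (0.77 to 0.94) at 12w, where the median promoter stood at 0.89, and 0.95 times (0.82 to 1.10) at 24w, where it stood at 0.93. Both Setd8 values lay within the middle range of promoters, which ran from 0.77 to 1.04 at 12w and from 0.75 to 1.12 at 24w between the quartiles. Per base of called peak the ratios of the summed peaks were 0.76 and 0.86, against medians of 0.84 and 0.93 for all promoters, and again within the quartiles. In order of age, the first peak held 40.4, 33.2 and 39.7 ATAC CPM over 1950, 2455 and 2399 bases. The second held 31.9, 28.5 and 28.8 over 2512, 2548 and 2509 bases. Single peaks were not set beside all promoters. The intervals understate the error, because both ends of a fragment are counted, and the transferred NSC-like class had a median score of 0.56 to 0.73.

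Setd8 start sites were more open in NPC-like than in NSC-like cells. The NPC-like cells held 85.6, 80.4 and 86.7 ATAC CPM in order of age, which is 1.19 (1.10 to 1.28), 1.3 (1.18 to 1.44) and 1.27 (1.06 to 1.51) times the NSC-like cells of the same library. The median promoter stood at 1.01, 1.07 and 1.08, and the upper quartile at 1.15, 1.27 and 1.37, so the 24w value lay within the middle range. By peak, the NPC-like and NSC-like intervals at P5 were apart in the first, with 51.0 (48.2 to 54.0) against 40.4 (37.1 to 43.8) ATAC CPM, and overlapped in the second, with 34.6 (32.3 to 37.1) against 31.9 (29.0 to 34.98). At 12w they were apart in both peaks, with 44.7 (40.7 to 49.0) against 33.2 (29.9 to 36.7) and 35.7 (32.1 to 39.5) against 28.5 (25.4 to 31.8). At 24w they were again apart in the first peak only, with 56.1 (48.3 to 64.7) against 39.7 (33.3 to 47.0). Immature neurons, whose RNA was high at P5, were not more open than NSC-like cells at that age, with ratios of 0.95 (0.88 to 1.03) in IMN1-like and 0.91 (0.84 to 0.98) in IMN2-like cells. Median transfer scores were 0.55 to 0.58 in NPC-like cells over the ages, and 0.53 and 0.61 in IMN1-like and IMN2-like cells at P5. In PC-like cells the start sites held 98.1, 54.1 and 56.4 ATAC CPM, with ratios to P5 of 0.55 (0.51 to 0.60) and 0.58 (0.53 to 0.62), where the median promoter stood at 0.72 and 0.73. Per base they were 0.49 and 0.52, against 0.67 and 0.71.

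Among the other members, the Suv420h2 start site lay above the upper quartile of promoters in NSC-like cells at 24w. In NSC-like cells it held 76.6, 81.7 and 130.3 ATAC CPM in order of age, a 24w ratio of 1.70 (1.52 to 1.90) against a median promoter of 0.93 and 1.75 per base, while the RNA ratio was 0.95 (0.37 to 2.04) on 7 UMIs. In AS-like cells the ratios were 1.29 (1.21 to 1.38) at 12w and 1.32 (1.21 to 1.42) at 24w, beside RNA ratios of 1.16 (0.84 to 1.58) and 1.83 (1.11 to 2.86). The Suv420h1 start site lay below the lower quartile in immature neurons, at 0.72 (0.67 to 0.77) in IMN1-like and 0.70 (0.66 to 0.73) in IMN2-like cells at 12w, against medians of 0.88 and 0.86, and at 0.62 and 0.60 per base against 0.83 and 0.82, while its RNA stood at 0.99 (0.67 to 1.42) and 1.33 (0.93 to 1.88). The Phf8 start site in NSC-like cells stood at 0.84 (0.74 to 0.95) and 0.91 (0.76 to 1.10), near the medians. Sex was read from the scRNA-seq cells only. The number of X chromosomes in the scATAC-seq cells is therefore not known, and its part in the Phf8 values was not tested.

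**Figure D4:**
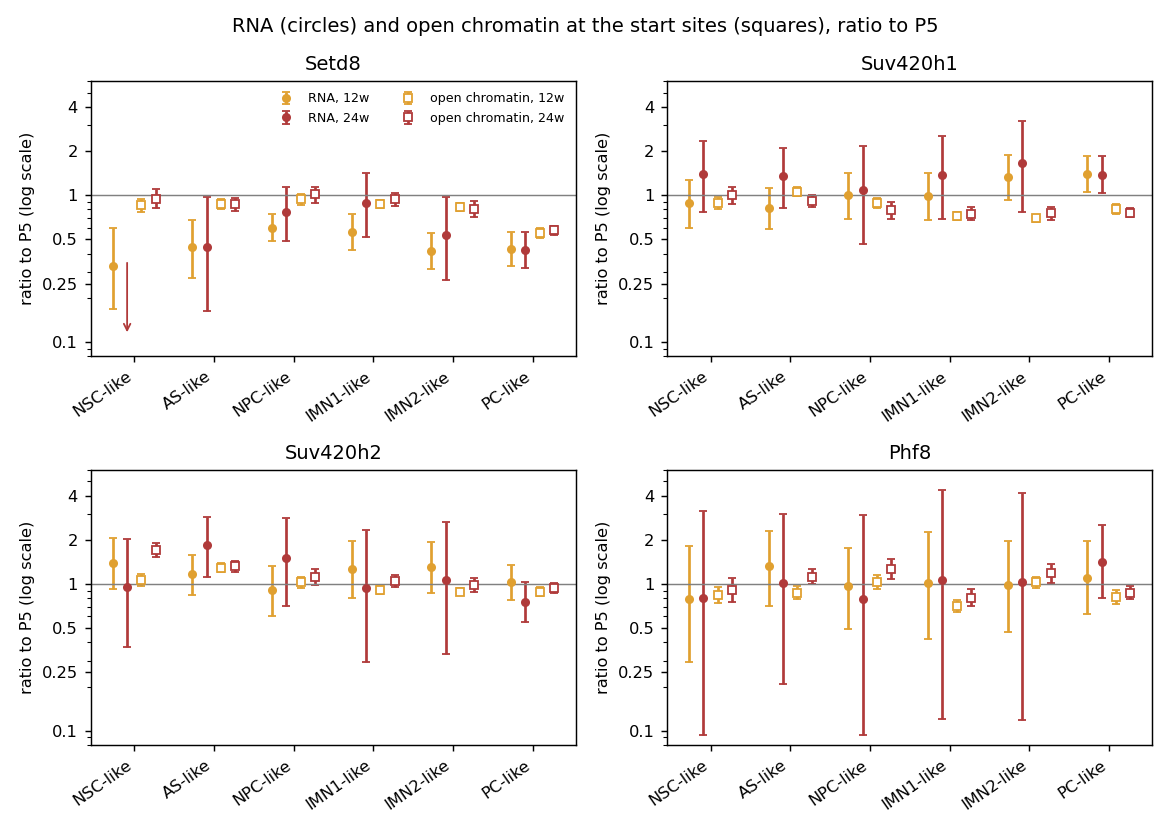
Ratio to P5 on a log axis of RNA (filled circles, scRNA-seq) and of counts at the start sites (open squares, scATAC-seq) by class, at 12w and 24w, with 95% intervals covering counting error only. Open squares are ratios of sums over peaks called per library. The downward arrow is Setd8 in NSC-like cells at 24w, with 0 UMIs, drawn from the interval's upper bound of 0.37.

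In the cultured NSCs, the Setd8 level did not follow the labels of the libraries. TPM values were given for 4 libraries, and Setd8 stood at 154.2 TPM in the library labelled Ctrl 3, at 143.1 in the library labelled Setd8KD 1, at 143.2 in the library labelled Setd8KD 2 and at 36.4 in the library labelled Setd8KD 3. Only the library labelled Setd8KD 3 was thus low, and the 2 others labelled Setd8KD lay near the one labelled Ctrl 3. Each of the 4 libraries held the same values as 1 column of the study's own table for 170 of 170 genes compared, and in that table the first 3 are headed Ctrl and the last Setd8KD. That grouping, 3 against 1, is used here, so every direction below rests on 1 library that is taken to vary like the other 3. With this grouping, the spread between libraries comes from the 3 headed Ctrl only. The calls cannot tell the knockdown apart from other differences of that library. Log2(TPM + 1) of the 3 libraries correlated at 0.992 to 0.993 with each other and at 0.973 to 0.974 with the library labelled Setd8KD 3. The cultures held Sox2 at 226 to 251 TPM and Hopx at 40.7 to 56.1 TPM, but only 3 of the 11 NSC markers of the tissue were above 1 TPM in every library, and Tfap2c and Wnt8b were near 0. Of the 7 OPC markers, 5 were above 1 TPM in every library, with Olig1 at 2360 to 2548 and Olig2 at 1108 to 1340 TPM, but Pdgfra at 3.16 to 4.31 TPM and Sox10 at most 0.084 TPM, and none of the 6 oligodendrocyte markers was. Also above 1 TPM in every library were 7 of 9 AS, 6 of 8 NPC and 4 of 5 ependymal markers. The AS markers had the highest sum, 3961 to 4477 TPM, most of it Igfbp2 at 3894 to 4403 TPM.

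Setd8 fell by 1.98 ± 0.07 (SE) on the log2 scale in the library labelled Setd8KD 3 (limma on log2(TPM + 1), Benjamini-Hochberg adjusted p = 5.02e-04 over 13233 genes). It is the gene targeted by the shRNA, so this is a check of the grouping. Of all genes tested, 20% were lower and 18.9% higher, 38.9% in all, and Setd8 ranked 24th by size of fall. Without the library labelled Setd8KD 1, 1698 rather than 2644 genes were lower and 1545 rather than 2498 higher. With the groups as labelled, Setd8 changed by -0.76 (limma, adjusted p = 0.9999) and 0 genes passed in limma or in edgeR, where 67 higher and 47 lower (limma) and 47 higher and 7 lower (edgeR) had an unadjusted p under 0.05.

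The other members did not pass the test in that library. Suv420h1 stood at 13.8, 12.6 and 13.3 TPM in the 3 libraries headed Ctrl and at 15.98 TPM in the library labelled Setd8KD 3, above all 3, with a log2 difference of 0.26 ± 0.09 (limma, adjusted p = 0.0801). Phf8 stood at 8.71, 8.85 and 8.76 TPM and at 10.4 TPM, again above all 3, with 0.22 ± 0.10 (limma, adjusted p = 0.125). Suv420h2 stood at 42.5, 40.4 and 44.3 TPM and at 45.3 TPM, with 0.10 ± 0.08 (limma, adjusted p = 0.355). On the reads recovered from TPM, edgeR's quasi-likelihood test put Suv420h1 (0.26, adjusted p = 0.0170) and Phf8 (0.23, adjusted p = 0.0494) past the threshold, while DESeq2 did not (adjusted p = 0.0627 and 0.219). Per gene length, Setd8 was the most abundant member in the 3 libraries headed Ctrl, followed by Suv420h2, Suv420h1 and Phf8, and in the library labelled Setd8KD 3 it fell below Suv420h2.

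**Figure D5:**
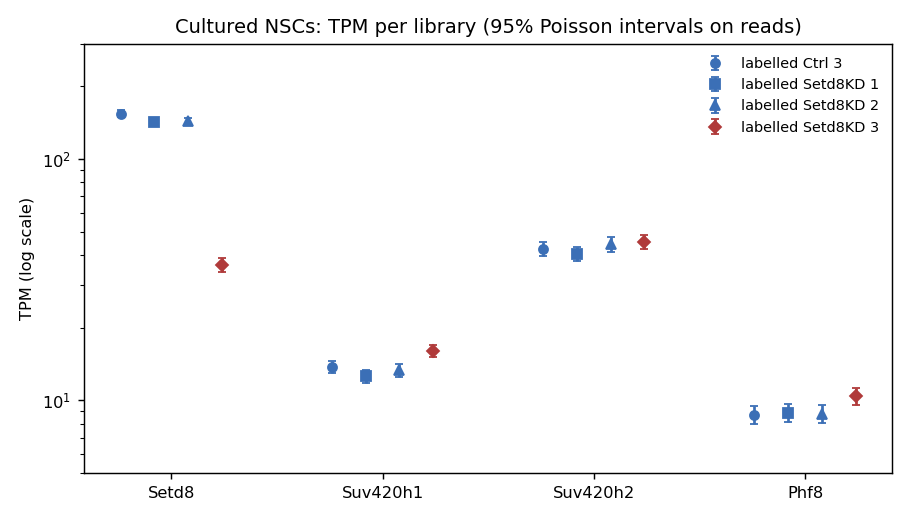
TPM of the 4 members (horizontal axis) in the 4 RNA-seq libraries of cultured NSCs on a log axis, with 95% Poisson intervals on the recovered reads. Blue marks the libraries headed Ctrl in the study's table and red the one headed Setd8KD, where Setd8 stood at 36.4 TPM against 143.1 to 154.2 TPM in the others.

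The lists of the pathway are set beside the 20% of all genes that were lower and the 18.9% that were higher in the library labelled Setd8KD 3. Of 7 readers tested, 5 were lower and none higher, with a median log2 difference of -0.45 against 0.0015 over all genes. These were the condensin II subunits Ncapg2 (28.1 to 30.9 against 13.8 TPM, fell by 1.04) and Ncapd3 (25.1 to 28.7 against 13.9 TPM, fell by 0.93), the replication origin protein Orc1 (14.7 to 15.4 against 8.09 TPM, fell by 0.83), Lrwd1 and Phf20. Of 9 turnover genes, 3 were lower, namely Dtl (38.2 to 40.0 against 16.3 TPM, fell by 1.21), Pcna (288 to 296 against 162 TPM, fell by 0.84) and Skp2 (47.9 to 50.6 against 30.1 TPM, fell by 0.70). Of 4 other H4K20 demethylases, Kdm7a (6.85 to 7.72 against 11.6 TPM) and Phf2 (44.3 to 46.8 against 57.3 TPM) were higher, by 0.62 and 0.33 on the log2 scale. Of Smyd3 and Smyd5, Smyd5 was lower, by 0.30.

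All 28 mitotic and all 27 replication genes were lower in the same library, with median log2 differences of -1.04 and -0.93. These lists moved with the reader and turnover genes above, several of which are themselves expressed in cycling cells, and fewer cycling cells and less RNA per cell cannot be told apart in bulk samples.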

How the data were processed

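The authors aligned scRNA-seq reads to mm10 with Cell Ranger 2.2.0 and deposited counts of UMIs per gene and barcode, and deposited scATAC-seq counts of transposase sites per peak, with peaks called in each library. For RNA-seq, the authors trimmed with Trimmomatic, aligned to mm10 with STAR and deposited TPM. TPM times gene length gave whole reads (within 0.02) for 100% of values below 200 reads, 20040076 to 21493347 reads per library; 2 further files labelled Ctrl 1 and Ctrl 2 hold gene symbols and lengths. H4K20me1 ChIP-seq and bulk ATAC-seq were not analysed here.

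Cells had at least 1000 UMIs, 500 genes and at most 10% mitochondrial UMIs, and 932, 80 and 3 doublets were removed. Seurat 5.3.0 clustered them at a resolution of 0.8 without the 27 genes of the members and the 4 H4K20 lists. A cluster was named from the marker list with the highest score (at least 0.5, with 3 raised markers). It stayed unnamed where this score led the next by under 0.5 with at most 1 marker among its top 10 genes, a rule set after the clusters were seen. scATAC-seq barcodes had 3000 to 100000 counts, and classes were transferred by canonical correlation. Peaks within 1000 bases of a start site were summed. RNA-seq was tested with limma 3.58.1 on log2(TPM + 1) for genes of at least 1 TPM in a library. edgeR 4.0.16 on recovered reads called 3013 genes higher and 3076 lower of 13628, and DESeq2 1.42.0 was also run. Named genes are the members, the lists and the 5 genes most like Setd8. Members and lists were chosen with earlier results of these data known. Scripts were tested on simulated data.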

Additional observations from a re-analysis of the deposited data

Results flagged for a closer look

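At the start sites, 24 pairs of classes lay on opposite sides of P5 by their counting intervals, with 1 library per age. How often pairs of classes did so over all promoters was not counted. The differences were not tested, and each value is a ratio of sums over peaks called per library. Setd8 at 12w stood at 1.34 times P5 (1.17 to 1.52) in OPC-like cells, where 77 barcodes were classed at 12w and the median promoter stood at 1.01. Its ratio there was 1.57, 1.53, 1.53, 1.60, 2.42 and 2.75 times that in NSC-like, AS-like, IMN1-like, IMN2-like, PC-like and VSMC-like cells, which all lay below P5. The median promoter stood at 0.89, 0.93, 0.88, 0.86, 0.72 and 0.69 in these classes. Setd8 lay within the quartiles of promoters in NSC-like, AS-like, IMN1-like and IMN2-like cells, at 0.85, 0.88, 0.87 and 0.83. It lay below the lower quartile in PC-like and VSMC-like cells, at 0.55 and 0.49. Per base, the OPC-like ratio was 1.19 against a median of 0.96.

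Phf8 at 24w stood at 1.27 (1.08 to 1.49) in NPC-like, 1.18 (1.02 to 1.37) in IMN2-like and 1.62 (1.28 to 2.06) in oligodendrocyte-like cells, against 0.81 (0.70 to 0.92) in IMN1-like and 0.87 (0.79 to 0.97) in PC-like cells. The ratios of ratios were 1.57, 1.46 and 2.01 against IMN1-like and 1.45, 1.35 and 1.86 against PC-like cells. Against the median promoter of 0.73 in PC-like cells, Phf8 was not lower there.

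Suv420h2 at 12w stood at 1.29 (1.21 to 1.38) in AS-like, 1.34 (1.05 to 1.70) in oligodendrocyte-like and 1.36 (1.10 to 1.68) in ependymal-like cells. It stood at 0.90 (0.85 to 0.96) in IMN1-like, 0.89 (0.84 to 0.94) in IMN2-like, 0.89 (0.82 to 0.96) in PC-like and 0.78 (0.62 to 0.99) in VSMC-like cells. In that order of the lower classes, the ratios of ratios were 1.43, 1.46, 1.46 and 1.67 for AS-like, 1.48, 1.51, 1.51 and 1.73 for oligodendrocyte-like and 1.498, 1.53, 1.53 and 1.75 for ependymal-like cells. The median promoter stood at 0.88, 0.86, 0.72 and 0.69 in the lower classes, so against that median Suv420h2 was lower in none of them. The RNA of the members showed no such opposite pair.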

How the results depend on the processing

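The 256 alternative values for the members' age ratios in RNA and the 22 for cycling state lay within the intervals reported. The NSC-like Setd8 ratio ran from 0.30 (free RNA subtracted) to 0.42 (P5 cells of like sex) at 12w and stayed 0 at 24w. The NSC-like cluster alone and cells without cycling UMIs were alternatives added after seeing the data. Cycling states from cells that were not thinned gave no value, since no NPC-like cell then held 0 UMIs of both lists. Of 152 start-site values, 27 moved beyond their intervals, with a transfer score of at least 0.7 or per base of called peak (added after seeing the data); per base, the NSC-like ratios of Setd8 at 12w and of Suv420h1 at 12w and 24w were 0.76, 0.77 and 0.86, lower than over whole peaks by the construction, since the adult peaks were longer. In RNA-seq, Setd8 changed by -0.76 with the groups as labelled and by -0.51 with edgeR on them (added after seeing the data), with 0 genes lower and 0 higher in both; edgeR on recovered reads moved Suv420h1 (0.26) and Phf8 (0.23) past the threshold. Without a filter, 1038 genes were lower and 1196 higher. Leaving out 1 library headed Ctrl gave 1698 to 2776 lower and 1545 to 2666 higher genes, the fewest without the library labelled Setd8KD 1, and Setd8 fell by 1.95 to 2.00. No paired analysis was possible because the labelled Ctrl and Setd8KD libraries with values share only replicate number 3. Depth limits the 24w classes, where NSC-like cells total 326609 UMIs, and all knockdown values rest on 1 library.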
